A study of Mus musculus with 4 samples.

Results

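The keratin genes were described in immune cells isolated from the wounded dermis of mice. They were every gene of the deposited transcript table whose symbol is Krt followed by a digit, which gave 52 genes of 24358, each with 1 transcript. Both populations came from wound day 5 in male C57/Bl6 mice of 7 weeks, isolated by fluorescence-activated cell sorting, with 2 libraries each. The first was CD301b macrophages, which bear the C-type lectin CD301b, and the second, labelled F4/80neg, was immune cells sorted as negative for the macrophage surface protein that Adgre1 encodes. RNA of macrophage genes was nevertheless read in that population, Adgre1 at 150.8 FPKM (557 FPKM in the CD301b macrophages), C1qa at 425 FPKM and Csf1r at 283 FPKM, which goes against the label at the RNA level. The table holds 1 FPKM per gene and population (fragments per kilobase of transcript, scaled to library size), which is the authors' value for both libraries together. No spread between libraries, no depth and no error can therefore be given for any FPKM. FPKM is scaled to transcript length, so levels of different keratins can be set side by side.

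Keratins are the intermediate filament proteins of epithelia. A filament is built from pairs of a type I (acidic) and a type II (basic) keratin. Krt5 with Krt14 is found in the dividing basal layer, and Krt1 with Krt10 in the differentiating layers above it. Krt6a or Krt6b with Krt16 or Krt17 is found in keratinocytes activated at a wound edge, and these are called wound-induced below. The class names follow these pairs, and the cells that the RNA came from were not tested. Hair shaft and inner root sheath keratins belong to the growing hair follicle, and Krt8 with Krt18 to simple epithelia. Leukocytes are not known for keratin filaments, and their main cytoplasmic intermediate filament protein is vimentin.

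The type I genes of the mouse stand together on chromosome 11 and the type II genes on chromosome 15, with the type I gene Krt18 at the edge of the latter. Among the 52 genes, 28 were type I and 24 type II. Of the 34 keratin promoters that RefSeq gives at the start used by the deposited table (GRCm38.p6), 15 held the TATA-box letters TATAAA on either strand within the 100 bases before the start, against 5.56% of 32851 promoters of all genes. Another motif searched on both strands, TGANTCA, to which AP-1 factors bind, was in 0 of these 34 and in 2.73% of all promoters. The promoters of all genes were not limited to such starts. Without that limit, TATAAA was in 15 and TGANTCA in 1 of 36 keratin promoters. The 5 sequences below set measured keratins beside unmeasured ones: a basal (Krt5), a suprabasal (Krt10) and a follicle duct keratin (Krt79) that were read in both populations, then a hair shaft (Krt31) and an inner root sheath keratin (Krt71) listed at 0 FPKM in both. Each is the 100 bases that end just before the start, 5′ to 3′ on the gene's own minus strand, and capitals mark TATAAA.
Krt5, chr15:101712906-101713005: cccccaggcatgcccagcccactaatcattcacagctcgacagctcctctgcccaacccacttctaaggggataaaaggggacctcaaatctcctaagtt
Krt10, chr11:99389365-99389464: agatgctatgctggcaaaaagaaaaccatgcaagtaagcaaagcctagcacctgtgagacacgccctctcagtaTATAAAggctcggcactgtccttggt
Krt79, chr15:101940325-101940424: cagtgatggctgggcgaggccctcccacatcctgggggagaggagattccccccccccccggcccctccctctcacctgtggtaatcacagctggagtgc
Krt31, chr11:100050552-100050651: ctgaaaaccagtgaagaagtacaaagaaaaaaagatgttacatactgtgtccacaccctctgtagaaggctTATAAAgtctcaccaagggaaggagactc
Krt71, chr15:101743098-101743197: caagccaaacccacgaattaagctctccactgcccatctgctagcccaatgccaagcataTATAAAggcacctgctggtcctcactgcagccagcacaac
The motif began at position -26 in Krt10, -29 in Krt31 and -40 in Krt71, where -1 is the base before the start. It was present in 1 of 4 such promoters of keratins at 1 FPKM or more and in 14 of 30 promoters of keratins under 1 FPKM. The first count covers 4 of the 12 keratins at 1 FPKM or more, so the shares are not compared. The promoter entry of Krt14 lies at a start inside the gene and was used among the 36 alone.

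Epidermal keratins were read in both sorted populations, and none of them differed between the populations past the threshold. In all, 12 of the 52 keratins reached 1 FPKM, the same 12 in each population, and they made up 99.0% of the summed keratin FPKM in the F4/80neg cells and 99.3% in the CD301b macrophages. All 12 had the lower FPKM in the CD301b macrophages, at 0.614 to 0.931 times the level in the F4/80neg cells, and their order from highest to lowest was the same in both. The authors' table reports a test for 14 keratins, and 0 of the 14 were called higher and 0 lower in the CD301b macrophages past an adjusted p of 0.05 (Benjamini-Hochberg adjustment, over every tested transcript, of the p-values that Cuffdiff gave in the authors' deposited table). Over all 13039 genes tested, the same rule called 11% higher and 6.2% lower, so a count of 0 among 14 lies close to the background for lower calls. Their median log2 fold, on the log2(FPKM + 1) scale used for every log2 fold here, was -0.35, and the median of all genes tested was 0.05. By unadjusted p of at most 0.05, 5 of the 14 were lower (35.7%) and 0 were higher, against 12.6% of all genes tested lower and 19.5% higher. The 14 values come from the same libraries and are not independent of each other. Whether the libraries of a population came from separate animals is not stated by the labels, and the p-values may measure technical spread alone.

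**Figure D1:**
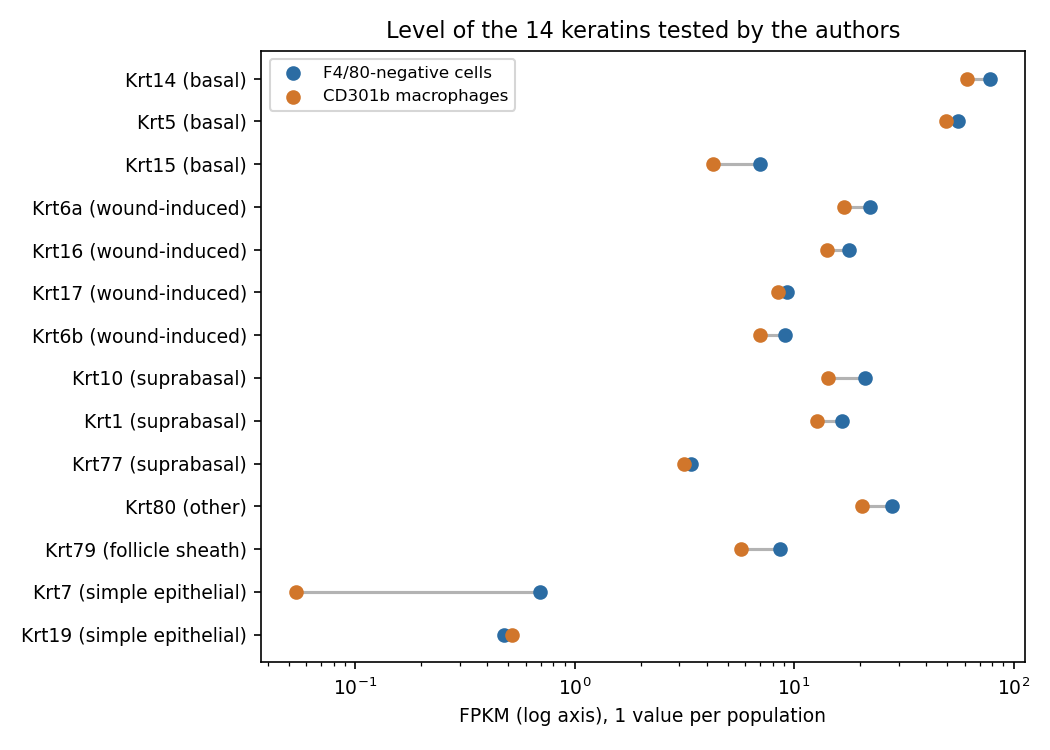
FPKM of the 14 keratins that the authors tested, on a log axis, with 1 point per population and the class of each gene in brackets. Krt14 and Krt5 are highest in both populations, and in 13 of 14 genes the point of CD301b macrophages lies to the left of that of the F4/80neg cells.

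Basal keratins were the most abundant class. Krt14, the type I keratin of basal keratinocytes (chromosome 11, 100203162 to 100207510, RefSeq GRCm38.p6), was 78.1 FPKM in the F4/80neg cells and 61.7 FPKM in the CD301b macrophages, a ratio of 0.789 (adjusted p = 0.360, computed, as every adjusted p below, from the unadjusted p-values in the authors' deposited table). Krt5, its type II partner (chromosome 15, 101707069 to 101712905), was 55.6 and 49.3 FPKM (ratio 0.886, adjusted p = 0.642 from p-values in the authors' deposited table). Both were far from the lower end of the transcriptome: by FPKM, Krt14 stood at rank 969 of 24358 genes in the F4/80neg cells and at rank 1280 in the CD301b macrophages. Krt15, a keratin of basal and hair follicle bulge cells, was 6.97 FPKM in the F4/80neg cells and 4.28 FPKM in the CD301b macrophages, and had the smallest adjusted p of the family (0.0904, from p-values in the authors' deposited table) without passing the threshold. Basal keratins together summed to 140.7 FPKM and 115.2 FPKM, which was 50.3% and 52.5% of all keratin FPKM.

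The class of wound-induced keratins came next. Krt6a was 22.2 FPKM in the F4/80neg cells and 16.9 FPKM in the CD301b macrophages, and its neighbour Krt6b was 9.06 and 7.02 FPKM. Their type I partners were Krt16, at 17.8 FPKM in the F4/80neg cells and 14.1 FPKM in the CD301b macrophages, and Krt17, at 9.30 and 8.41 FPKM. All 4 had the lower value in the CD301b macrophages and none passed the threshold, the smallest adjusted p being that of Krt6a (0.288, from p-values in the authors' deposited table). The class summed to 58.4 FPKM in the F4/80neg cells and 46.5 FPKM in the CD301b macrophages (20.9% and 21.2% of keratin FPKM). Krt6a and Krt6b are close copies: 43.6% of the 50-base words in the Krt6a transcript also occur in Krt6b (GENCODE M21 transcripts). Krt16 shared 25.2% of its words with the unprocessed pseudogene Gm11597, and Krt14 shared 11.4% of its words with Krt16. With all other genes together, the shared part was 49.5% for Krt6a, 50.1% for Krt6b, 37.6% for Krt16, 14.4% for Krt14 and 8.52% for Krt5. The sources used here do not state how the authors assigned reads from such stretches. The split between Krt6a and Krt6b and the level of Krt16 are therefore uncertain. The levels of Krt14 and Krt5 have the same limit for a smaller part of their words.

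Suprabasal keratins summed to less than basal ones, although Krt10 and Krt1 were each above the basal keratin Krt15. Krt10, the type I keratin of differentiating keratinocytes, was 21.1 FPKM in the F4/80neg cells and 14.2 FPKM in the CD301b macrophages (ratio 0.676, adjusted p = 0.129 from p-values in the authors' deposited table). Krt1, its type II partner, was 16.6 and 12.7 FPKM (ratio 0.762), and Krt77, a type II keratin of skin, was 3.38 and 3.15 FPKM (ratio 0.931). Krt2, a keratin of the upper suprabasal layers, was listed at 0 FPKM in the F4/80neg cells and at 0.0118 FPKM in the CD301b macrophages and was not tested. Krt9 and Krt78 were likewise not tested, at 0.0671 FPKM or less. The 6 suprabasal genes summed to 41.1 and 30.1 FPKM (14.7% and 13.7% of keratin FPKM).

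**Figure D2:**
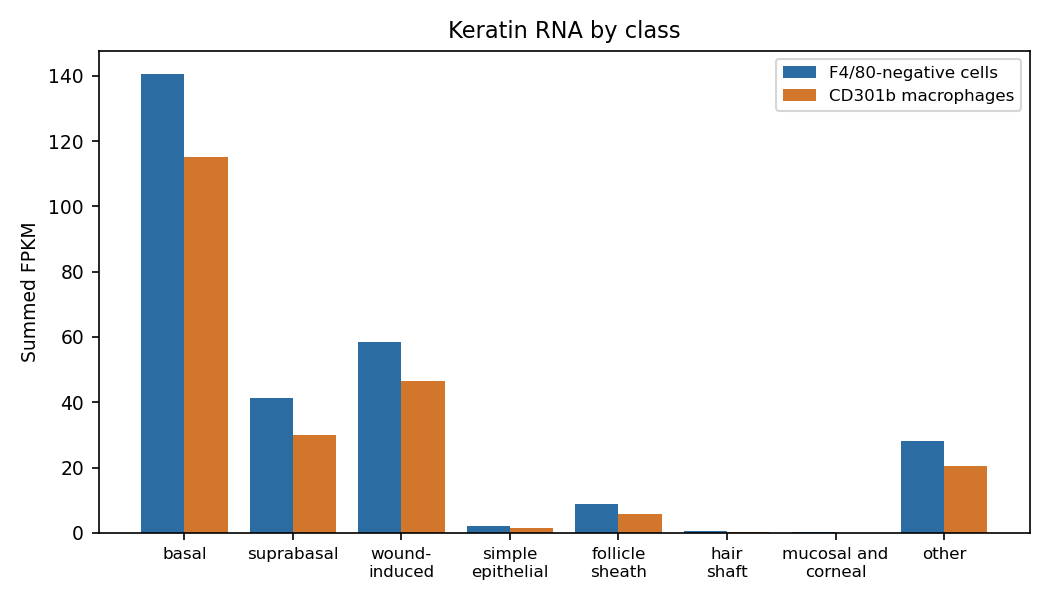
Summed FPKM of each keratin class (bars from 0), with 1 bar per population and no error because each population has 1 value. Basal keratins reach 140.7 and 115.2 FPKM, wound-induced keratins 58.4 and 46.5 FPKM and suprabasal keratins 41.1 and 30.1 FPKM, while hair shaft keratins are at 0.415 and 0.129 FPKM.

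Krt80, a type II keratin found in many epithelia and outside the 3 epidermal classes, was exceeded in the family by Krt14 and Krt5 alone in both populations. It was 27.9 FPKM in the F4/80neg cells and 20.4 FPKM in the CD301b macrophages (ratio 0.732, adjusted p = 0.155 from p-values in the authors' deposited table). That was 1.68 times the level of Krt1 in the F4/80neg cells and 1.61 times in the CD301b macrophages. No 50-base word of its transcript occurs in another gene's transcript. Its locus (chromosome 15, 101348315 to 101370162) lies inside the antisense gene Gm35853 on the opposite strand (101322888 to 101405834, GENCODE M21). Overlap of their exons was not examined and the strand setting of the counting is not given. It is therefore not known whether reads of that gene were counted for Krt80. The shorter antisense genes Gm11940 and Gm49428 overlap parts of Krt10 and Krt6a.

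In the class of follicle sheath keratins a single gene reached 1 FPKM, and it is a duct keratin placed in that class. Krt79, a keratin of the follicle opening and sebaceous duct, was 8.64 FPKM in the F4/80neg cells and 5.71 FPKM in the CD301b macrophages (ratio 0.660, adjusted p = 0.131 from p-values in the authors' deposited table). None of the other 9 sheath genes was tested, and 4 of the 10 were listed at 0 in both populations, Krt71 among them. Of 15 hair shaft keratins 0 were tested and 8 were listed at 0 in both, and the highest was Krt86, at 0.224 FPKM in the F4/80neg cells and 0.0467 FPKM in the CD301b macrophages. Symbols are those of the table: its Krt83 carries an accession that RefSeq now assigns to Krt87. Keratin-associated proteins, which cross-link hair keratins, gave the same picture, with all 53 Krtap genes of the table listed at 0 in both populations.

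Simple epithelial keratins were near 0. Krt8 was listed at 0 FPKM in the F4/80neg cells and at 0.0257 FPKM in the CD301b macrophages, and its partner Krt18 was 0.215 and 0.0481 FPKM, both untested. Krt20, a keratin of Merkel cells in skin, was 0.398 and 0.364 FPKM, and Atoh1, the transcription factor that defines Merkel cells, was listed at 0 in both. Krt7 was the tested keratin with the ratio furthest from equality (0.0772), at 0.697 FPKM in the F4/80neg cells and 0.0538 FPKM in the CD301b macrophages (adjusted p = 0.1003 from p-values in the authors' deposited table). Krt19, a keratin of follicle bulge and ductal cells, was the single tested keratin with the higher value in the CD301b macrophages, at 0.518 against 0.477 FPKM (adjusted p = 0.917 from p-values in the authors' deposited table). None of the 4 mucosal and corneal keratins was tested, and the highest, Krt4, was 0.0546 FPKM.

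The main filament partners were compared within each population. Krt14 was 1.40 times Krt5 in the F4/80neg cells and 1.25 times in the CD301b macrophages, and Krt10 was 1.27 and 1.13 times Krt1. Krt16 alone came to 0.569 and 0.588 times the sum of Krt6a and Krt6b, and Krt16 plus Krt17 to 0.867 and 0.940 times. Over the whole family, type I keratins summed to 134.9 FPKM against 144.6 FPKM of type II in the F4/80neg cells (ratio 0.933), and to 104.0 against 115.4 FPKM in the CD301b macrophages (ratio 0.901). The suprabasal to basal ratio was also near in the populations: Krt10 was 0.270 times Krt14 in the F4/80neg cells and 0.231 times in the CD301b macrophages. With 1 value per population no spread can be set beside these ratios, and their differences were not tested.

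**Figure D3:**
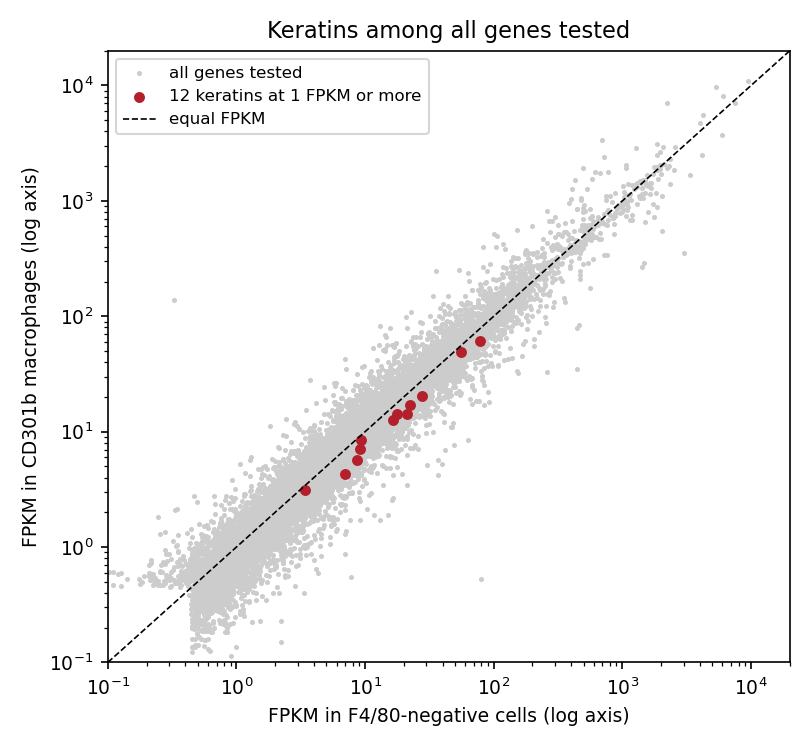
FPKM in the CD301b macrophages against FPKM in the F4/80neg cells for the genes tested that lie above 0.1 FPKM in both (grey, both axes log), with the 12 keratins at 1 FPKM or more in red and the line of equal FPKM dashed. The 12 keratins lie below the line, from Krt77 at 3.38 and 3.15 FPKM to Krt14 at 78.1 and 61.7 FPKM.

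All 52 keratins summed to 279.5 FPKM in the F4/80neg cells and 219.5 FPKM in the CD301b macrophages, a ratio of 0.785. This was 0.0537% and 0.0399% of all FPKM. Vim, which encodes vimentin, was 2505 and 1836 FPKM, or 8.96 and 8.37 times all keratins together, and did not pass the threshold (adjusted p = 0.164 from p-values in the authors' deposited table). Among the 20 other intermediate filament and linker genes listed, 10 were tested, 2 fell in the CD301b macrophages, 0 rose and 8 did not pass, beside 6.2% lower and 11% higher of all genes tested, with a median log2 fold of -0.28. The 2 were Lmnb1, a nuclear lamin (50.6 against 31.4 FPKM from the F4/80neg cells to the CD301b macrophages), and Plec, the linker plectin (28.8 against 19.8 FPKM). Lmna, the other abundant lamin, was 122.8 and 93.9 FPKM and did not pass. The call of Plec rested on a single transcript of many (12.02 against 5.90 FPKM). The other 6 tested genes of that list were under 10 FPKM in both populations.

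Part of the other genes of the keratinocyte programme passed the test, and each of them lay below Krt14 and Krt5 in FPKM in both populations. For the counts that follow, the background over all genes tested is 6.2% lower and 11% higher. Of 16 desmosome and junction genes 10 were tested, 5 were lower in the CD301b macrophages and 0 higher, with a median log2 fold of -0.54. Perp, a desmosomal membrane protein of stratified epithelia, fell from 16.2 FPKM in the F4/80neg cells to 7.42 FPKM in the CD301b macrophages (adjusted p = 0.000999, the smallest obtained from p-values in the authors' deposited table). The plakophilin gene Pkp1 was 3.14 and 1.74 FPKM, and the desmogleins Dsg1a (0.833 and 0.415 FPKM) and Dsg3 (0.791 and 0.398 FPKM) were also called lower. Cdh1, which encodes E-cadherin, was 9.19 and 2.52 FPKM and completed the 5. Jup, plakoglobin, was 8.38 and 5.62 FPKM and did not pass (adjusted p = 0.0622 from p-values in the authors' deposited table).

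Among 16 cornified envelope and barrier genes in the table, 8 were tested, 1 was lower and 0 were higher, which is near the background of 6.2% lower, with a median log2 fold of -0.48. The lower gene was Krtdap, a secreted protein of differentiating keratinocytes, at 28.1 FPKM in the F4/80neg cells and 14.04 FPKM in the CD301b macrophages (adjusted p = 0.0233 from p-values in the authors' deposited table). Sbsn, suprabasin, was 11.6 and 7.34 FPKM, and Tgm1, the transglutaminase that cross-links the envelope, was 3.93 and 6.21 FPKM, neither past the threshold. Of 10 genes of the basal epidermis and hemidesmosome, all tested, 3 were lower, 1 was higher, near the background of 11%, and 6 did not pass, with a median log2 fold of -0.31. The lower genes were Sfn, the keratinocyte 14-3-3 protein stratifin (14.9 and 7.77 FPKM), Col17a1, the hemidesmosomal collagen XVII (3.19 and 1.79 FPKM), and Epcam, an epithelial adhesion molecule (3.51 and 0.9999 FPKM). Itga6, which encodes the integrin alpha 6 chain, was the higher gene at 10.97 FPKM in the F4/80neg cells and 19.6 FPKM in the CD301b macrophages. Dst, a hemidesmosomal linker, was 3.09 and 2.54 FPKM. Trp63, the transcription factor of the basal layer, was 1.27 and 0.550 FPKM, with no transcript past the threshold.

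**Figure D4:**
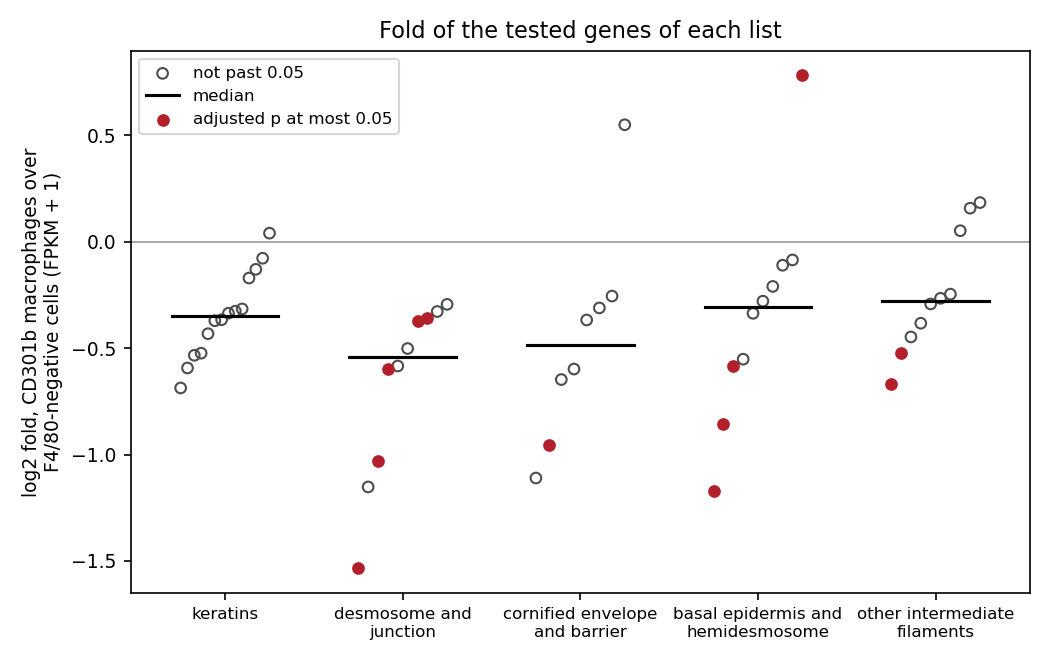
Log2 fold of CD301b macrophages over the F4/80neg cells, on the FPKM + 1 scale, for each tested gene of 5 lists, with the list's median as a bar and genes at an adjusted p of at most 0.05 filled. No keratin is filled, while 5 desmosome and junction genes, 1 barrier gene and 3 basal epidermis genes are filled below 0 and Itga6 is filled above it. Of the other intermediate filament genes 2, Lmnb1 and Plec, are filled below 0.

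The sum over the 42 genes of these 3 keratinocyte lists was 144.7 FPKM in the F4/80neg cells and 93.4 FPKM in the CD301b macrophages, a ratio of 0.646 beside the 0.785 of the keratins. Itga6, which was called higher, held 10.97 FPKM of the sum in the F4/80neg cells and 19.6 FPKM of that in the CD301b macrophages. By the median ratio of the tested genes the values were 0.525 for these lists and 0.769 for the keratins. Without Epcam and Cdh1, both called lower and left out after seeing the data, the ratio of the sums was 0.681. The sums were not computed without Itga6. Differences between the ratios were not tested, since each population has 1 value. Markers of other cells were read beside these lists. The 6 fibroblast markers had a summed level of 6197 FPKM in the F4/80neg cells and 4200 FPKM in the CD301b macrophages, each member having the lower value in the latter and 1, Lum, past the threshold. Of 4 Langerhans cell markers, which include Epcam and Cdh1 of the lists above, 3 were called lower. The 4 summed to 93.4 and 45.2 FPKM. Most of that sum was Cd24a, also called lower, at 78.5 FPKM in the F4/80neg cells and 40.2 FPKM in the CD301b macrophages. Cd207, the lectin that defines Langerhans cells, was 2.17 and 1.49 FPKM and did not pass. The 6 macrophage markers were all called higher, at 1427 and 3798 FPKM summed. The 4 markers of endothelium summed to 50.1 and 46.9 FPKM, all tested and none past the threshold. Those of melanocytes summed to 2.02 and 1.24 FPKM, with 2 of 5 tested and neither past it, and those of Merkel cells to 0.667 and 0.449 FPKM, with 0 of 5 tested. The part of any of these cells in the keratin values was not tested, and in bulk samples fewer cells of a type and less RNA per cell cannot be told apart.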

How the data were processed

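RNA of 2 libraries per population was sequenced after an Illumina TruSeq mRNA preparation, per the labels' protocols. TopHat2 2.0.2, Cuffdiff 2.0.2 and the build mm9 stand in the submitters' processing notes. The sources used here do not state the counting settings or the strand. The authors deposited 1 table with 34535 transcripts, each with 1 FPKM per population and an unadjusted p-value, per the file headers. How libraries were combined, and their depth, is unknown. The loci of 51 of the 52 keratins overlapped the RefSeq gene of their accession on GRCm38.p6, so positions printed are of that build and not of mm9.

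FPKM was summed by symbol. P-values were Benjamini-Hochberg adjusted over the 16921 transcripts that the authors tested, and this matched their deposited calls in all 34535 transcripts. A gene was called at an adjusted p of at most 0.05 in at least 1 transcript, with none passing the other way and the sum going the same way. For genes with several transcripts the adjusted p given is the smallest. The deposited log2 fold was not used, because it holds spreadsheet errors. Log2 folds have a pseudocount of 1. The adjustment and calls were tested on simulated data. No test across libraries was possible, and no replicate could be left out.

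Members, classes and lists were chosen with earlier results of these data known. Named were keratins at 1 FPKM or more, Krt5, Krt14, Krt15, Krt1, Krt10, Krt2, Krt6a, Krt6b, Krt16, Krt17, Krt8, Krt18 and Krt80 whatever their level, and of each other list up to 6 called and the 3 most abundant members. Krt4, Krt7, Krt9, Krt19, Krt20, Krt31, Krt71, Krt78, Krt86, Krt83, Trp63, Sprr1a and the marker genes were named in addition, after their values were seen. Alternatives were another threshold, filters on low FPKM, pseudocounts, the highest transcript and scaling to the median gene. Flg and Sprr2a1 of the barrier list are not analysed here. Python 3.11.15, pandas 2.3.3, numpy 2.4.6, scipy 1.17.1 and matplotlib 3.10.9 were used.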

Additional observations from a re-analysis of the deposited data

How the results depend on the processing

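The counts of 0 keratins called higher and 0 lower stayed 0 at a threshold of 0.01 and among genes at 1 FPKM or more. By the highest transcript alone they were also 0. None of these settings could have changed the count, since a stricter threshold or filter only removes calls and each keratin has 1 transcript. With unadjusted p, 5 were lower. At the threshold of 0.01 the lower calls among the 3 keratinocyte lists went from 9 to 3, which were Perp, Cdh1 and Epcam. Those among the other intermediate filament genes went from 2 to 1. Among genes at 1 FPKM or more in either population, 7 of the 9 lower calls of the keratinocyte lists were left. Without Epcam and Cdh1, an alternative chosen after seeing the data, 7 of the 9 lower calls were left. Scaling each population to its median gene moved every log2 ratio without a pseudocount by -0.10. The log2 folds with the pseudocount of 1 moved by less, that of Krt18 from -0.213 to -0.218. All 12 keratins at 1 FPKM or more stayed lower in CD301b macrophages by FPKM. This was fixed in advance, because the scaling multiplied the CD301b values by 0.935. The summed ratio of hair shaft keratins went from 0.311 to 0.177 when transcripts under 0.1 FPKM were left out. Among the keratins named, the folds (not their log2) of Krt7, Krt18, Krt86, Krt2, Krt8 and Krt9 changed by over 1.5 times with the pseudocount. All of them were under 1 FPKM. The log2 fold of Krt7 went from -0.69 to -2.37 at a pseudocount of 0.1 and to -3.47 at 0.01. None of these folds changed direction with the pseudocount or the median scaling, nor did a class ratio under the settings run. A pseudocount added to both values cannot change a direction, and the scaling could only lower a ratio. For these 2 settings the unchanged directions are therefore no support. The filter at 0.1 FPKM left no mucosal and corneal keratin and gave no value for that class. No paired analysis was possible because the table has 1 value per population. Leaving out each replicate was not run for the same reason.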
